A study of Mus musculus with 16 samples.

Results

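The mitochondrial genome of the mouse encodes 13 proteins, all of them subunits of the respiratory chain or of the ATP synthase. The 7 genes described here are *mt-Nd1*, *mt-Nd2*, *mt-Co1*, *mt-Nd4*, *mt-Nd5*, *mt-Nd6* and *mt-Cytb*. They were chosen by their RNA-seq level, at least 100000 counts in each gene summed over the 8 RNA-seq libraries, so their high RNA level is the rule and not a result. They are 7 of the 13 mitochondrial protein genes and 7 of 22579 genes in the count tables. The member closest to the threshold was *mt-Nd6* with 104929 counts, and the first gene outside it was *mt-Atp6* with 6129 counts.

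The cells came from organoids of C57BL/6J mouse hair follicle stem cells (HFSCs), cultured for 2 weeks as a mix of stem cells and their progeny. The organoids were sorted on α6 integrin and CD34 into α6+/CD34− progenitors and α6+/CD34+ HFSCs, and were either left untreated or given N1-acetylspermidine (N1-AcSpd), an acetylated polyamine, for the last 72 h. RNA-seq after removal of ribosomal RNA and Ribo-seq, which counts RNA fragments protected by ribosomes (footprints), were made from the same lysates. Each of the 4 groups held 1 library per assay from each of 2 donor mice, 16 libraries in all. No transgene or deletion is named for any group. Each library is 1 donor's sorted culture, so all comparisons rest on samples of 2 mice. The p-values below for RNA-seq draw on the spread between such samples. Those for Ribo-seq in the main edgeR fit use the spread of genes of like abundance, as described below.

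The RNA-seq libraries held 21601141 to 31505435 counts and the Ribo-seq libraries 34467 to 267921 footprints, so a Ribo-seq value of a single gene rests on few counts. *Cd34*, the gene of the sorted surface marker, was at 67.7 to 90.8 CPM (counts scaled to the same total in every library) in the 4 HFSC RNA-seq libraries and at 2.33 to 5.14 CPM in the 4 progenitor libraries. Of 11 genes of HFSC identity, 7 passed the edgeR test as higher in HFSCs at the RNA level averaged over treatment, where 3.91% of all genes passed. Within each treatment 3 passed as higher, beside 0.148% of all genes untreated and 0.753% under N1-AcSpd. In these comparisons 0 passed as lower. Markers of fibroblasts, leukocytes, endothelial cells and melanocytes, 12 genes in sum, made up 0.000319% to 0.00141% of the RNA-seq libraries, and *Lyz2*, *Cd207* and *Cdh5* were at 0 in all 8. Deviations from the group mean were shared between the RNA-seq libraries of the same mouse in 3 groups (correlation across 12242 genes 0.352 to 0.591). Those of the treated HFSCs ran the other way (−0.572 to −0.396). Results that use the mouse as a block are therefore given with the 2 treated HFSC numbers as labelled and exchanged. The exchange was chosen from these same data, so calls made under it are a description.

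Mitochondrial genes are transcribed as long RNAs from both strands of a circular genome and are cut into single messages at the transfer RNAs that lie between them. The messages have almost no untranslated leader and are translated inside the organelle by its own ribosomes, with a genetic code that differs from that of the nucleus. *mt-Nd1*, *mt-Nd2*, *mt-Nd4*, *mt-Nd5* and *mt-Nd6* encode membrane subunits of complex I, which passes electrons from NADH to ubiquinone. *mt-Cytb* encodes the cytochrome b of complex III, and *mt-Co1* the catalytic subunit of complex IV, which reduces oxygen to water. The other subunits of these complexes are made from nuclear genes in the cytosol and imported.

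The starts of the 7 coding sequences show how these messages differ from nuclear ones. They are given here from the coding strand of GRCm38, the build of the deposited counts, with the annotated start codon in capitals.
mt-Nd1: GTGttctttattaatatcctaacactcctc
mt-Nd2: ATAaatcctatcacccttgccatcatctac
mt-Co1: ATGttcattaatcgttgattattctcaacc
mt-Nd4: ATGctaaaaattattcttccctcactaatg
mt-Nd5: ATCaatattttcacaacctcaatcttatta
mt-Nd6: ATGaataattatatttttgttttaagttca
mt-Cytb: ATGacaaacatacgaaaaacacacccatta
Of the 7, 4 begin with ATG and the others with GTG, ATA or ATC. *mt-Nd1* lies at chrM:2751-3707, *mt-Nd2* at chrM:3914-4951, *mt-Co1* at chrM:5328-6872, *mt-Nd4* at chrM:10167-11544, *mt-Nd5* at chrM:11742-13565, *mt-Nd6* at chrM:13552-14070 and *mt-Cytb* at chrM:14145-15288. Each is a single exon without introns. *mt-Nd6* is on the other strand from the 6 other members, and its end overlaps that of *mt-Nd5* by 14 bases. The library kit for RNA-seq does not mark strand, so RNA from *mt-Nd6* cannot be told apart from RNA of the opposite strand over the same region. That strand is carried by the long precursor of *mt-Nd5* and *mt-Cytb*.

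The genes inside and outside the threshold were also divided by a nuclear copy of the mitochondrial genome. On chromosome 1 of GRCm38, a stretch at chr1:24611535-24616184 repeats mitochondrial bases 6394 to 11042 in reverse orientation. The copy differs by 1 substitution, T9461C (the mitochondrial base first, counted along chrM), and by 1 inserted or deleted base. It overlaps 7 annotated unprocessed pseudogenes and covers 100% of each of the 6 mitochondrial protein genes that missed the threshold. Of the members, it covers 31.0% of *mt-Co1* and 63.6% of *mt-Nd4* and 0% of the 5 others. The edges of the copy are shown because they fall inside these 2 genes, with the bases that are also in the nucleus in capitals.
mt-Co1, chrM:6379-6408: gtggtctaaccggaaTTGTTTTATCCAACT
mt-Nd4, chrM:11027-11056: CTACTCCTCAGTTAGCcacatagcacttgt
A read from the copied stretch has at least 2 equal places in the genome unless it spans the substitution or the inserted or deleted base. Shorter exact copies of parts of *mt-Co1* also lie elsewhere, among them chr2:22588515-22588575, which repeats mitochondrial bases 6400 to 6460 and so overlaps the capitals of *mt-Co1*. How the counting treated such reads is not given in the sources used here.

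Over words of 28 bases, about the length of a footprint, *mt-Nd1* was unique in the genome for 100% of its words, *mt-Cytb* for 90.7%, *mt-Nd6* for 89.4%, *mt-Nd2* for 83.9% and *mt-Nd5* for 80.4%. *mt-Nd4* was unique for 36.3% and *mt-Co1* for 33.3%. The 6 genes outside the threshold were unique for 0% to 0.935% of their words. Per kilobase of gene, these 6 had median RNA levels of 19.9 to 48.6 CPM, against 987 to 25167 CPM for the members. The part that unique sequence has in these levels, those of *mt-Co1* and *mt-Nd4* included, was not tested.

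**Figure D1:**
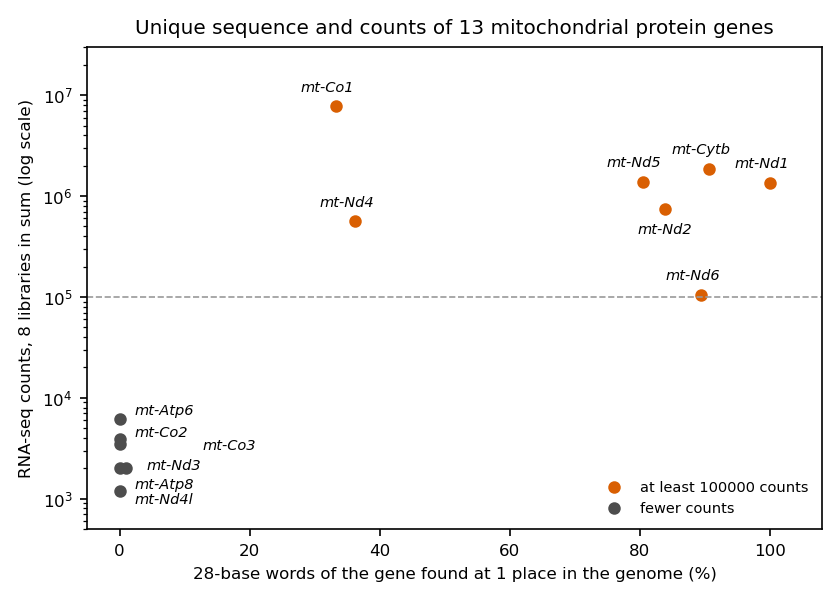
Share of 28-base words found at 1 place in the genome (x axis, percent) against RNA-seq counts summed over 8 libraries (y axis, log scale) for the 13 mitochondrial protein genes, 1 point per gene. The 7 members lie between 33.3% and 100% and the 6 other genes between 0% and 0.935%.

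*mt-Co1* had more RNA-seq counts than any other of the 16024 genes with a count, 7733676 in all, and made up 56.3% of the counts of the 7 genes. *mt-Cytb* followed with 13.5%, *mt-Nd5* with 10.0%, *mt-Nd1* with 9.81%, *mt-Nd2* with 5.44%, *mt-Nd4* with 4.11% and *mt-Nd6* with 0.764%. These proportions moved little between libraries. *mt-Co1* stayed between 53.2% and 60.0% of the 7 and *mt-Cytb* between 11.8% and 14.7%, while *mt-Nd6*, from the opposite strand, went from 0.579% to 1.12%. Per kilobase, the median RNA level ran from *mt-Co1* with 25167 CPM to *mt-Cytb* with 7470, *mt-Nd1* with 6635, *mt-Nd5* with 3685, *mt-Nd2* with 3364, *mt-Nd4* with 1906 and *mt-Nd6* with 987. Across the 8 libraries, the log2 levels of the members had Pearson correlations with each other of 0.772 to 0.991 over 21 pairs, with a median of 0.952. These points share libraries and the division by 1 library total.

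The question behind the treatment was what N1-AcSpd does to the 2 cell populations. In the sum of the 7 genes, the untreated progenitors had 5.23% and 6.89% of their RNA-seq counts on these genes and the treated progenitors 5.70% and 8.18%. The untreated HFSCs had 4.64% and 6.42%, and the treated HFSCs 8.95% and 8.19% (mouse 1 and mouse 2 in each pair). The treated and untreated libraries overlapped, because treated progenitors of mouse 1 lay below untreated libraries of mouse 2. The treated libraries were on average 1.34-fold higher (0.42 on the log2 scale). Within a mouse as labelled, the share was higher after treatment in 4 of 4 pairs, 1.09-fold and 1.19-fold in progenitors and 1.93-fold and 1.28-fold in HFSCs. In bulk libraries of this kind, a change in the number of cells of a type and a change in RNA per cell cannot be told apart. The groups ran from treated HFSCs (8.57% ± 0.539, SD, n = 2) through treated progenitors (6.94% ± 1.76) and untreated progenitors (6.06% ± 1.17) to untreated HFSCs (5.53% ± 1.26). No neighbours in this order differed by more than the sum of their SDs.

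**Figure D2:**
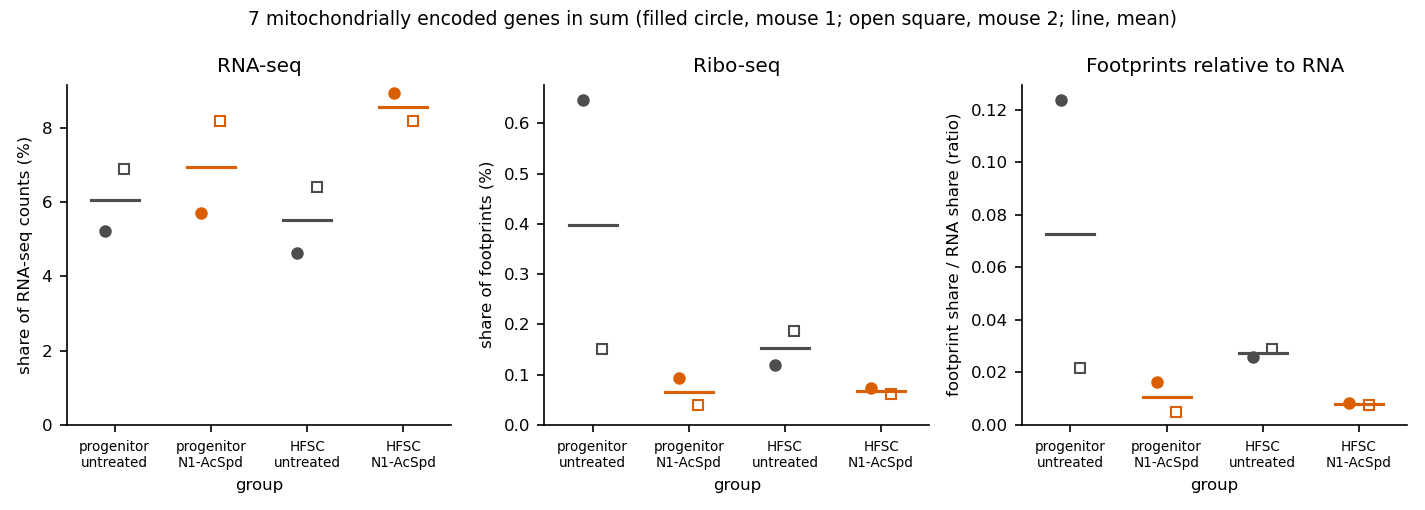
Share of the 7 genes in each library of either assay (percent of all counts) and the ratio of the footprint share to the RNA share, by group; filled circles are mouse 1, open squares mouse 2 and lines the means. The 4 treated libraries lie below the 4 untreated ones for footprints and for the ratio, and overlap with them for RNA.

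Taken gene by gene, *mt-Nd1* RNA was at 4766 and 6401 CPM in untreated progenitors, 6298 and 8049 in treated progenitors, 4094 and 5520 in untreated HFSCs and 8805 and 9146 in treated HFSCs. *mt-Nd2* was at 2703 and 3658 CPM, 3325 and 4697, 2338 and 2877, and 5290.2 and 4675 in the same order of groups. For both genes the treated HFSCs were the highest of their cell type, and a treated progenitor library lay below an untreated one. *mt-Nd4* RNA was at 2060.0 and 2769.9 CPM in untreated progenitors, 2362 and 3669 in treated progenitors, 1688 and 2482 in untreated HFSCs and 4258 and 3153 in treated HFSCs. *mt-Nd5* was at 5398 and 7134 CPM, 5616 and 8478, 4707 and 6307, and 9469.7 and 7573. Again both treated HFSC libraries exceeded both untreated HFSC libraries, and the progenitor libraries overlapped.

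*mt-Nd6* RNA was at 328 and 613 CPM in untreated progenitors, 329.9 and 619 in treated progenitors, 276 and 527 in untreated HFSCs and 1007 and 497 in treated HFSCs. Of the members, it had the widest gap between the mice. Mouse 2 was 1.87-fold, 1.88-fold and 1.91-fold above mouse 1 in the 3 other groups, while in treated HFSCs the library labelled mouse 2 was at 0.494 of the level of the library labelled mouse 1. *mt-Cytb* RNA was at 6529 and 8920 CPM in untreated progenitors, 8011 and 12064 in treated progenitors, 5455 and 8171.5 in untreated HFSCs and 13043 and 11428 in treated HFSCs. *mt-Co1* was at 30536 and 39435 CPM, 31015 and 44262, 27850 and 38330, and 47654 and 45430. In the other 3 groups all 7 genes were higher in mouse 2, and in treated HFSCs 1 of 7 was.

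**Figure D3:**
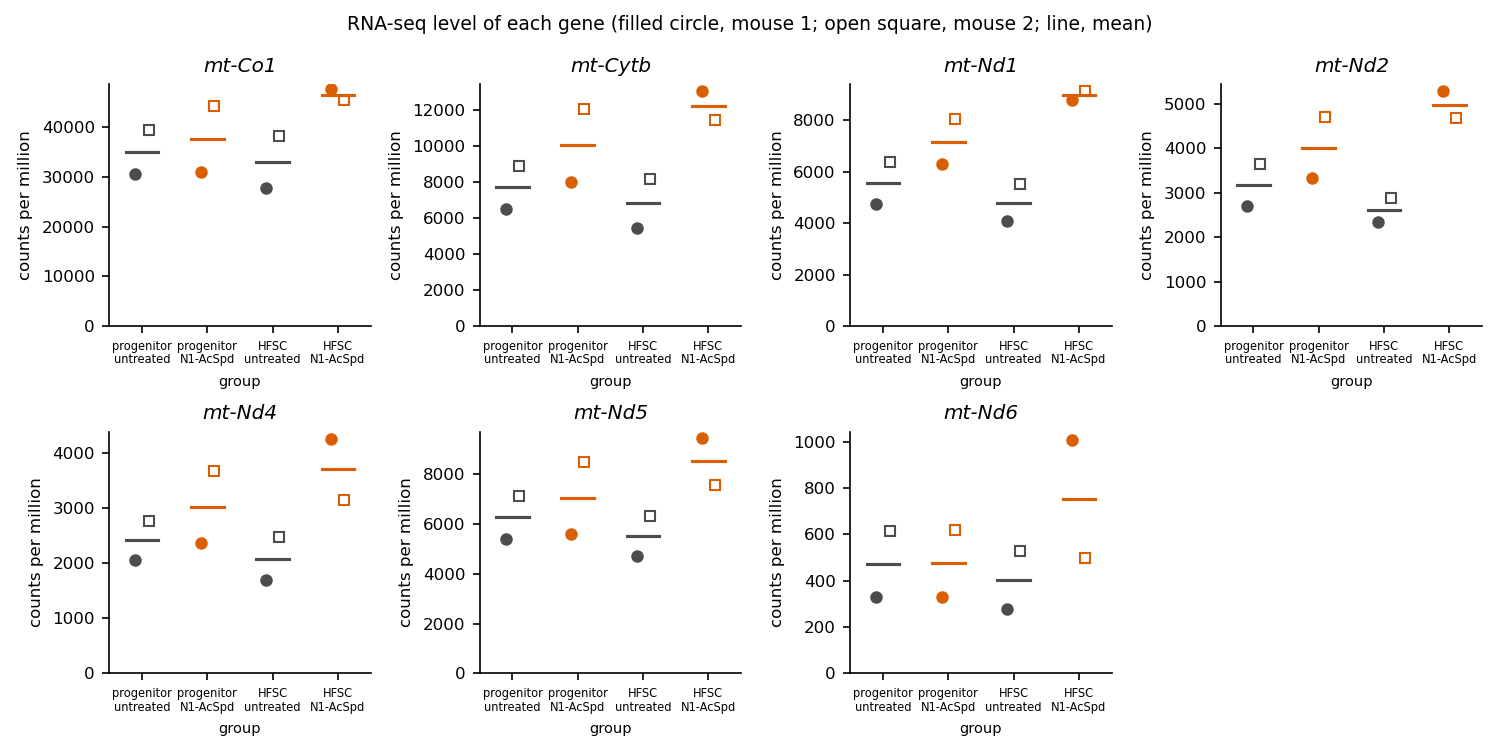
RNA-seq level of each of the 7 genes (CPM) in the 8 libraries by group; filled circles are mouse 1, open squares mouse 2 and lines the means. Treated HFSCs exceed untreated HFSCs for 6 of the genes, whereas *mt-Nd6* overlaps and treated progenitors overlap with untreated ones throughout.

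In edgeR's quasi-likelihood test over 14205 genes, with p adjusted by Benjamini-Hochberg over all of them and a threshold of 0.05, 0 of 7 members passed for N1-AcSpd averaged over both cell types, where 1.63% of all genes passed. At an unadjusted p under 0.05 there were 5 of 7, against 15.6% of all genes, and DESeq2 called 4 of 7, against 4.09%. The fitted log2 change was above 0 for all 7, from 0.32 ± 0.16 (SE) for *mt-Co1* to 0.66 ± 0.15 for *mt-Nd2*, whose adjusted p by edgeR was 0.0837, with a median of 0.60 over the 7 and −0.01 over all genes. *mt-Nd1* had 0.65 ± 0.15 and an adjusted p by edgeR of 0.0769, with 0.000237 to 0.228 over 16 alternatives. With the mouse as a block, 1 of 7 passed in edgeR, *mt-Nd1* (adjusted p 0.0224), against 0.929% of all genes. With the block and the 2 treated HFSC numbers exchanged, all 7 passed in edgeR, with adjusted p between 0.000442 and 0.0402, in a fit that called 8.86% of all genes. That exchange was picked from the same RNA-seq values that the fit tests. The call for these RNAs thus depended on the model and on the mouse numbers of the treated HFSC libraries.

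Within HFSCs the members' log2 changes with N1-AcSpd were 0.53 for *mt-Co1*, 0.67 for *mt-Nd5*, 0.86 for *mt-Nd4*, 0.88 for *mt-Cytb*, 0.94 for *mt-Nd6* and *mt-Nd1*, and 0.97 for *mt-Nd2*. None passed in edgeR, where 0% of all genes did (adjusted p 0.271 to 0.692 for the members). At an unadjusted p under 0.05 there were 5, against 7.75% of all genes, and DESeq2 called 4, against 0.88%. The block as labelled called 0 (adjusted p by edgeR 0.140 to 0.659), with 7 of 7 at an unadjusted p under 0.05 (7.53% of all genes). With exchanged numbers the block called 7 in a fit that called 1.89% of all genes. Within progenitors the changes were 0.02 for *mt-Nd6* to 0.39 for *mt-Cytb*. Without treated progenitors of mouse 2 they were below 0 for *mt-Co1* (−0.20), *mt-Nd4* (−0.062), *mt-Nd5* (−0.19) and *mt-Nd6* (−0.54). With all libraries 0 of 7 passed in edgeR against 0.239% of all genes, with 0 at an unadjusted p under 0.05 (8.9% of all genes) and 0 by DESeq2 (1.22%). With the mouse as a block 0 passed as labelled (0.0493% of all genes) and 0 exchanged (3.1%). At an unadjusted p under 0.05 these 2 fits had 1 of 7 (8.55% of all genes) and 4 of 7 (15%). The difference between these changes, the interaction of cell type and treatment, was 0.42 to 0.91, and 0 of 7 passed against 0% of all genes. At an unadjusted p under 0.05 there were 0 of 7 in edgeR (0.831% of all genes) and 2 of 7 in DESeq2 (0.436%). DESeq2 called 0 of 7 and 0% of all genes. The block called 0 with either set of numbers, with 2 of 7 at an unadjusted p under 0.05 as labelled (0.697% of all genes) and 7 of 7 exchanged (1.76%). The 4 treated libraries all lay above the 4 untreated ones for 0 of 7 members and for 3.82% of all genes tested. The 6 mitochondrial genes outside the threshold had changes of 0.19 to 0.37 averaged over cell types, with none called.

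In these RNAs, HFSCs and progenitors passed the edgeR test for a difference in none of the 7 genes. Without treatment the fitted log2 difference of HFSCs from progenitors was −0.35 to −0.14, and with N1-AcSpd it was 0.24 to 0.63. Averaged over treatment it was −0.03 to 0.17. In edgeR, 0 of 7 passed in each of these comparisons, and 0.148%, 0.753% and 3.91% of all genes did. An unadjusted p under 0.05 was reached by 0 of 7 in each and by 9.6%, 11.2% and 18.1% of all genes. DESeq2 called 0 of 7 in each, and 1.89%, 2.64% and 6.68% of all genes. The block as labelled called 0 in each, beside 0.0211%, 0.31% and 3.12% of all genes. An unadjusted p under 0.05 was reached there by 1, 1 and 0 of 7, beside 9.39%, 11.1% and 18% of all genes. With exchanged numbers it called 1 of 7 under N1-AcSpd, *mt-Nd6* (0.62 ± 0.08, adjusted p by edgeR 0.00110), in a fit that called 6.36% of all genes, and 0 without treatment and averaged, beside 5.27% and 13.7%. At an unadjusted p under 0.05 the exchanged block had 4 of 7 without treatment, 7 under N1-AcSpd and 1 averaged, beside 16.9%, 18.2% and 26.3% of all genes. In the edgeR fit without a block, averaged over treatment, the identity genes *Krt15*, a keratin of the bulge, and *Cd34* were 1.86 and 4.53 higher in HFSCs on the log2 scale (adjusted p 8.01e-05 and 0.000205).

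Footprints on the 7 genes were few. *mt-Co1* had 373 over the 8 Ribo-seq libraries, *mt-Nd6* 257, *mt-Cytb* 233, *mt-Nd5* 222, *mt-Nd1* 59, *mt-Nd2* 27 and *mt-Nd4* 19. Of the 6 other mitochondrial genes, *mt-Nd3* had 5 footprints and the others 0. Where *mt-Co1* ranked 1 by RNA-seq counts, it ranked 351 by footprints. Pooled over libraries, the footprint share of the 7 genes was 0.0209 of their RNA share, against a median of 1.01 for 10153 other genes with a mean of at least 100 RNA-seq counts. Because the members were chosen by their RNA-seq counts, the denominator here, the choice itself favours a low ratio, and the comparison is a description. The ratio was 0.00811 for *mt-Nd4*, 0.00871 for *mt-Nd2*, 0.0105 for *mt-Nd1*, 0.0116 for *mt-Co1*, 0.0302 for *mt-Cytb*, 0.0388 for *mt-Nd5* and 0.590 for *mt-Nd6*. Of the other genes, 2.75% had a lower ratio than *mt-Nd4*, 2.83% a lower ratio than *mt-Co1* and 28.4% a lower ratio than *mt-Nd6*.

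*mt-Nd6* stood apart from the other members here. It was the lowest of the 7 in RNA per kilobase and the highest in footprints per kilobase, with a median of 382 CPM. *mt-Co1* followed with 227, *mt-Nd5* with 148, *mt-Cytb* with 142, *mt-Nd1* with 68.0, *mt-Nd4* with 11.1 and *mt-Nd2* with 9.51. Of the footprints on the 7, *mt-Nd6* held 21.6%, against 0.764% of their RNA-seq counts. It is also the single member on its strand, and the strand setting of the counting is not given in the sources used here, so footprints of *mt-Nd6* and protected fragments of the opposite strand cannot be told apart. The lysis buffer held cycloheximide, which stalls cytosolic ribosomes and not those of mitochondria, and gel cuts of 24 to 36 nt were taken. What these steps contribute to the low footprint share was not tested.

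With N1-AcSpd the footprint share of the 7 genes was lower in each library than in any untreated one, a description for which no p is given. Without *mt-Co1* and *mt-Nd4*, which are partly covered by the nuclear copy, the groups nearly met. The highest treated share was then 0.07057% (progenitors of mouse 1) and the lowest untreated share 0.07065% (HFSCs of mouse 1). The untreated progenitors had 0.647% and 0.150% of their footprints on the 7 genes and the treated progenitors 0.0925% and 0.0407%. The untreated HFSCs had 0.120% and 0.187%, and the treated HFSCs 0.0744% and 0.0617%. These shares rest on 223 and 403 footprints in untreated progenitors, 76 and 26 in treated progenitors, 63 and 249 in untreated HFSCs, and 113 and 37 in treated HFSCs. The 95% Clopper-Pearson interval of the highest share was 0.565% to 0.737% and that of the next untreated progenitor library 0.136% to 0.166%. Such intervals cover counting error only, since footprints amplified by 16 cycles of PCR are not independent molecules. The mean treated level was 3.35-fold lower (−1.75 on the log2 scale). Without untreated progenitors of mouse 1 the log2 difference was −1.22. Within a mouse as labelled, the treated share was 6.997-fold and 3.69-fold lower in progenitors and 1.62-fold and 3.03-fold lower in HFSCs. The ratio of footprint share to RNA share was 0.0218 to 0.124 in untreated and 0.00497 to 0.0162 in treated libraries, 4.48-fold lower on average. On the log2 scale this was −2.16, and −1.59 without untreated progenitors of mouse 1. Each matched pair moved the same way, by 7.62-fold, 4.39-fold, 3.12-fold and 3.86-fold.

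The groups in footprint share ran from untreated progenitors (0.399% ± 0.351, SD, n = 2) through untreated HFSCs (0.154% ± 0.0470) and treated HFSCs (0.0681% ± 0.00896) to treated progenitors (0.0666% ± 0.0366). Untreated and treated HFSCs differed by 0.0855 percentage points, more than the sum of their SDs of 0.0560. The untreated groups did not differ from each other by more than theirs, and the treated groups did not either. The share of the 7 was also not alike within untreated progenitors. The library of mouse 1, the shallowest of the series with 34467 footprints, was 3.46-fold above the next highest library, and its values are left out in turn below.

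*mt-Cytb* fell in footprints. It had 73 and 56 footprints in untreated progenitors and 7 and 1 in treated ones, 12 and 60 in untreated HFSCs and 17 and 7 in treated ones. As CPM these were 2118 and 209, 85.2 and 15.7, 229 and 450.2, and 112 and 117. All 4 treated libraries lay below all 4 untreated ones. The untreated progenitor libraries were 10.1-fold apart. Averaged over cell types, the fitted log2 change with N1-AcSpd was −2.83 ± 0.40 (SE), with an adjusted p by edgeR of 1.6e-08. Within progenitors it was −4.05 ± 0.60, with an adjusted p by edgeR of 1.34e-07. Over 16 alternatives the progenitor change ran from −5.78 to −2.08, the latter without untreated progenitors of mouse 1. Pooled counts of 129 against 8 footprints gave a level 7.79-fold lower in treated progenitors. Within HFSCs it was −1.62 and did not pass.

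*mt-Co1* also fell. It had 89 and 114 footprints in untreated progenitors, 18 and 7 in treated progenitors, 24 and 68 in untreated HFSCs, and 42 and 11 in treated HFSCs. As CPM these were 2582 and 425, 219 and 110, 458 and 510.2, and 277 and 183. The treated and untreated libraries did not overlap. The untreated HFSC libraries were 1.11-fold apart and the untreated progenitor libraries 6.07-fold. The fitted log2 change was −1.93 ± 0.34 averaged over cell types, with an adjusted p by edgeR of 4.4e-05, and −2.87 ± 0.49 within progenitors, with an adjusted p by edgeR of 2.33e-05. Over 16 alternatives the progenitor change ran from −3.66 to −1.48, the latter without untreated progenitors of mouse 1. Within HFSCs it was −1.0003 and did not pass.

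Thus 2 of 7 members passed for N1-AcSpd in progenitors, where 0.0237% of 8431 genes passed, and 5 of 7 had an unadjusted p under 0.05, against 2.88% of all genes. These 2 genes are mitochondrial and are all that passed in that comparison. Averaged over cell types, 2 of 7 passed and 0.0356% of all genes did, the third gene being *Mmp13*. Lying below every untreated library in every treated one was seen for 2 of 7 members and for 1.68% of all genes. Within HFSCs 0 of 7 passed and 0% of all genes did, with 3 of 7 at an unadjusted p under 0.05 (3.44% of all genes) and 0 by DESeq2. For the interaction 0 of 7 passed and 0% of all genes did, with 2 of 7 at an unadjusted p under 0.05 (2.67% of all genes) and 0 by DESeq2, so the changes in the 2 cell types were not shown to differ.

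These calls changed with the model and with the libraries used. The edgeR fit of the Ribo-seq counts gave every gene the spread of its abundance trend (dispersion 0.0788 for *mt-Co1* and 0.0826 for *mt-Cytb*), so the gaps between the untreated progenitor libraries did not widen these errors. With counts summed over the transcripts of a gene the spread was estimated per gene (dispersion 0.238 and 0.340) and 0 of 7 passed in either comparison. DESeq2 called 0 with averaged changes of −3.02 for *mt-Cytb* and −2.10 for *mt-Co1*, and of −4.43 and −3.12 in progenitors. Without untreated progenitors of mouse 1, 0 of 7 passed in progenitors, and averaged over cell types *mt-Cytb* passed (−1.86, adjusted p by edgeR 0.0280) and *mt-Co1* did not (−1.25, 0.102). Without treated progenitors of mouse 2, 0 of 7 passed in progenitors (*mt-Cytb* −3.40, adjusted p by edgeR 0.0504), while averaged over cell types both passed (*mt-Cytb* −2.51, 0.000517, and *mt-Co1* −1.74, 0.0408). Over 15 alternatives the averaged adjusted p was 6.67e-15 to 1.00 for *mt-Cytb*, called in 13, and 2.05e-10 to 1.00 for *mt-Co1*, called in 12.

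**Figure D4:**
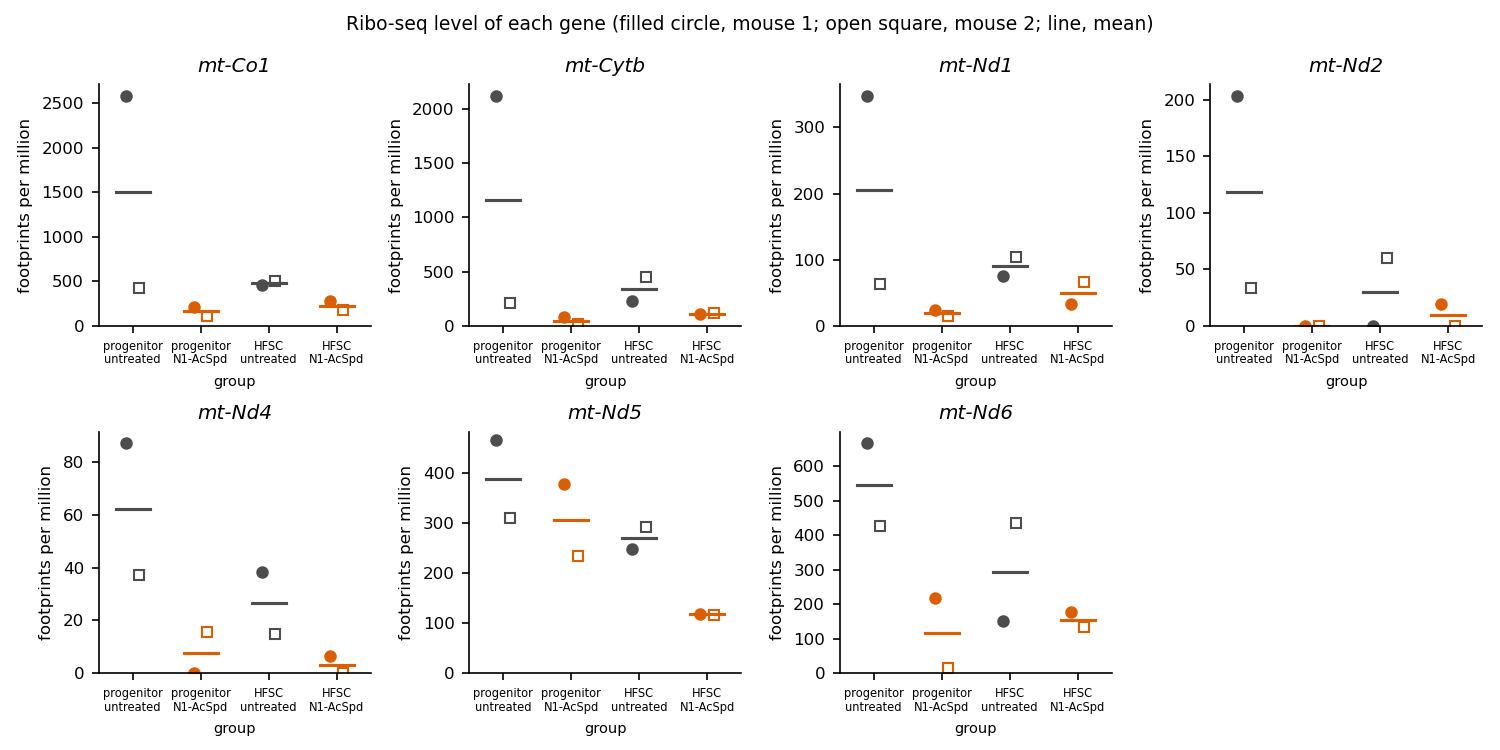
Ribo-seq level of each of the 7 genes (CPM) in the 8 libraries by group; filled circles are mouse 1, open squares mouse 2 and lines the means. For *mt-Co1* and *mt-Cytb* the 4 treated libraries lie below the 4 untreated ones, and 1 untreated progenitor library stands far above the rest.

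None of the complex I genes passed for N1-AcSpd in footprints. *mt-Nd6* had 23 and 114 footprints in untreated progenitors, 18 and 1 in treated progenitors, 8 and 58 in untreated HFSCs, and 27 and 8 in treated HFSCs. The treated progenitor libraries were 13.99-fold apart, and treated and untreated libraries overlapped. Its log2 change was −1.48 ± 0.38 averaged over cell types, with an adjusted p by edgeR of 0.0921 (0.00346 to 1.00 over 15 alternatives). The change was −2.94 without treated progenitors of mouse 1 and −0.92 without untreated HFSCs of mouse 2. *mt-Nd5* had 16 and 83 footprints, 31 and 15, 13 and 39, and 18 and 7 in the same order of groups. At 464 and 309.8 CPM untreated and 377 and 235 CPM treated, the progenitor libraries overlapped, and the fitted change was −0.21 within progenitors, 0.080 without treated progenitors of mouse 2, and −1.18 within HFSCs, with no interaction passing. Averaged over cell types it was −0.70 ± 0.37 and did not pass in edgeR (adjusted p 1.00).

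*mt-Nd1* had 12 and 17 footprints in untreated progenitors, 2 and 1 in treated progenitors, 4 and 14 in untreated HFSCs, and 5 and 4 in treated HFSCs. Pooled over both cell types, 47 footprints untreated and 12 treated gave a level 2.87-fold lower (95% counting interval 1.5002 to 5.95), and the fitted change of −1.91 ± 0.67 did not pass in edgeR (adjusted p 0.658). *mt-Nd2* had 7 and 9 footprints in untreated progenitors, 0 and 0 in treated ones, 0 and 8 in untreated HFSCs, and 3 and 0 in treated HFSCs. Its 16 against 0 in progenitors was at least 2.58-fold lower, set against a floor of 3 counts over the treated group, with a 95% counting interval from 1.86 upward. Without untreated progenitors of mouse 1, 9 against 0 was at least 1.64-fold lower by the same floor. *mt-Nd4* had 3 and 10 footprints, 0 and 1, 2 and 2, and 1 and 0, or 17 against 2 in all, 6.23-fold lower with a counting interval of 1.48 to 55.6. The counting intervals of these 3 genes treat footprints pooled over libraries as independent and hold no spread between mice. For *mt-Nd2* and *mt-Nd4* no fitted change is given because the treated libraries held 3 footprints or fewer in all. The fitted change was below 0 for 7 of 7 members, those 2 included, with a median of −1.93 averaged over cell types, against −0.07 over all genes tested. With those 2 set to their pooled ratio or bound the median was also −1.93.

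**Figure D5:**
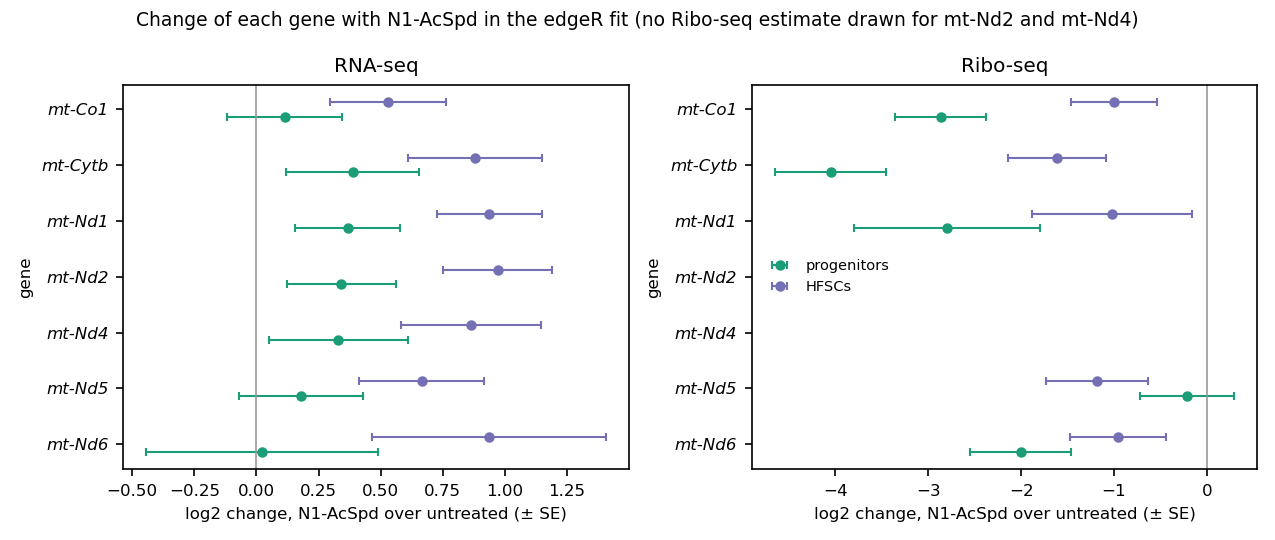
Fitted log2 change of each gene with N1-AcSpd (x axis, point and SE) in RNA-seq and Ribo-seq, for progenitors and HFSCs, from the edgeR fits. RNA-seq points lie above 0 (0.02 to 0.97) and Ribo-seq points below 0 (−4.05 to −0.21), and no Ribo-seq estimate is drawn for *mt-Nd2* and *mt-Nd4*.

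Translational efficiency, the footprint level relative to the RNA level of the same gene, was tested as an interaction of assay and group. Averaged over cell types, the fitted log2 change with N1-AcSpd was −3.38 ± 0.68 (SE) for *mt-Cytb*, −2.46 ± 0.61 for *mt-Nd1*, −2.17 ± 0.48 for *mt-Co1*, −1.96 ± 0.59 for *mt-Nd6* and −1.12 ± 0.34 for *mt-Nd5*. Without untreated progenitors of mouse 1 it was −2.44 for *mt-Cytb*, −2.03 for *mt-Nd1* and −1.48 for *mt-Co1*. For *mt-Nd6* it was −3.70 without treated progenitors of mouse 1 and −1.29 without those of mouse 2. In edgeR 0 of 7 passed (lowest adjusted p 0.148) and 0% of 8430 genes did, with 7 of 7 at an unadjusted p under 0.05 (7.33% of all genes). DESeq2 called 4 of 7, among 6 genes called in all (0.0712% of the 8430). It gave an adjusted p to only 422 of the 8430, so this percentage understates the share of genes that could be called. With the mouse as a block 2 of 7 passed, *mt-Cytb* and *mt-Co1*, the whole of the 0.0237% of genes called there. With the treated HFSC numbers exchanged 3 passed, these 2 and *mt-Nd6*, the whole of the 0.0356% called. In progenitors 0 of 7 passed and 0% of 8522 genes did, with 6 of 7 at an unadjusted p under 0.05 (5.93% of all genes) and 0 by DESeq2, whereas with the block 3 passed, *mt-Co1*, *mt-Cytb* and *mt-Nd6*, against 0.0469% of all genes. In HFSCs 0 of 7 passed and 0% of 8379 genes did, with 7 of 7 at an unadjusted p under 0.05 (6.83% of all genes) and 0 by DESeq2. *mt-Cytb* came closest there (−2.57, adjusted p by edgeR 0.0837, 0.000352 to 0.784 over 12 alternatives).

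Footprints of these genes were not shown to differ between HFSCs and progenitors either. Without treatment the fitted log2 difference of HFSCs from progenitors was −1.35 for both *mt-Co1* and *mt-Cytb*. It was 0.10 and 0.68 without untreated progenitors of mouse 1, and −2.14 and −2.29 without those of mouse 2. With all libraries 0 of 7 passed in edgeR against 0.0119% of all genes, with 2 at an unadjusted p under 0.05 (2.62% of all genes). With N1-AcSpd it was 0.52 and 1.08, and 0 of 7 passed against 0.0237%, with 1 at an unadjusted p under 0.05, *mt-Nd5* (−1.37), against 3.42% of all genes. Averaged over treatment 0 of 7 passed against 0.154% of all genes, again with *mt-Nd5* alone at an unadjusted p under 0.05 (−0.88), against 4.06% of all genes. DESeq2 called 0 in each of the 3, beside 0.0237%, 0.0119% and 0.083% of all genes. In the last of these it gave an adjusted p to 749 of 8431 genes. For translational efficiency between the cell types, 0 of 7 passed without treatment, 0 of 5 with enough counts passed with N1-AcSpd, and 0 of 7 passed averaged over treatment. Of 8766, 8010 and 8430 genes tested, 0% passed. An unadjusted p under 0.05 was reached by 0, 1 and 1 of the members and by 5.25%, 6.4% and 6.05% of all genes, and DESeq2 called 0 in each.

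Nuclear genes of the respiratory chain and the ATP synthase are read and translated outside the mitochondrion. The list also holds complex II and the ATP synthase, to which no member belongs. Of 76 listed, 75 had enough RNA-seq counts and 70 enough footprints to be tested, and 0 passed in edgeR for N1-AcSpd in either assay, beside 1.63% and 0.0356% of all genes averaged over cell types. Their median log2 change averaged over cell types was 0.03 in RNA-seq (all genes −0.01), with 46 above 0, and 0.05 in Ribo-seq (all genes −0.07), with 41 above 0. By complex, the RNA-seq medians were 0.01 for complex I, 0.05 for complex II, 0.04 for complex III, 0.04 for complex IV and −0.03 for the ATP synthase. Of 30 genes that transcribe, cut or stabilise mitochondrial RNA, 1 rose in RNA-seq, *Tbrg4* (0.35 ± 0.07, adjusted p by edgeR 0.0460), whose protein acts on mitochondrial RNA. That is 1 of 30 beside 1.63% of all genes. The list's median was 0.11, with 24 above 0. Of 15 genes of mitochondrial translation factors, 0 passed in RNA-seq (median 0.05), and of 12 tested in Ribo-seq 0 passed (median 0.13).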

How the data were processed

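RNA-seq and Ribo-seq were measured in 16 libraries. According to the study's methods, adapters were trimmed with flexbar, rRNA and tRNA reads were removed with Bowtie and the rest aligned with STAR to mm10. The submitters' processing notes name Bowtie 1.2.3, STAR 2.7.3a, featureCounts and GRCm38.p5. The authors deposited whole-number counts per transcript, without normalization. The counted region, strand setting and treatment of reads with several places are not given in the sources used here. The 7 genes have 1 transcript each. For other genes 1 transcript per gene was used.

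Counts were tested in edgeR 4.0.16 (R 4.3.3) by quasi-likelihood with TMM factors, on genes that averaged 1 count or more over the libraries, with the 4 groups of an assay in 1 fit and Benjamini-Hochberg adjustment over all genes at 0.05. Translational efficiency was the interaction of assay and group. Samples were grouped by their labels, which also name the mouse. Same-numbered samples come from the same animal, but the RNA-seq check described above did not bear this out for treated HFSCs (Ribo-seq correlations 0.0233 to 0.113). Alternatives were DESeq2 1.42.0, RLE factors, count minimums of 0 and 10, counts summed over transcripts, factors and library sizes without mitochondrial genes, a fit of only the 4 libraries compared, a mouse block and each library left out. The exchange of treated HFSC numbers was added after seeing the data. The members, gene lists and tests were chosen with earlier results of these data known. All members are named, from the other lists at most 3 called genes per direction, and the 5 nuclear genes most like the members. No p is given for the sum of the 7 genes, although a permutation test was planned. Counts were also simulated with the same dispersion for every gene of an assay and no difference between mice. On these the averaged RNA-seq test recovered 73.0% of 2-fold and 100% of 4-fold changes, and the Ribo-seq test 1.03% and 41.5%. Intervals are exact, and sequences and coordinates come from the GRCm38 reference.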

Additional observations from a re-analysis of the deposited data

Results flagged for a closer look

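In groups of 4 libraries that share a treatment, 34 sets of values were checked for a library far from the others, by the gap to its nearest neighbour as a share of the whole range. For independent sets drawn from a single normal population, chance would flag about 1 in 20. The sets here share libraries and mix 2 cell types, so the 6 that passed cannot be set against that rate. In 5 of them the library was that of untreated progenitors of mouse 1 among the untreated Ribo-seq libraries. The gap took up 0.961 of the range for *mt-Co1*, 0.874 for *mt-Cytb*, 0.854 for *mt-Nd1*, 0.874 for the sum of the 7 genes and 0.929 for the ratio of footprint share to RNA share. This library had 34467 footprints in all, the fewest of the 8. Its 10 most abundant genes held 9.20% of its footprints, against 9.85% to 10.9% in the others. The gap between the untreated progenitor libraries was 6.07-fold for *mt-Co1* and 10.1-fold for *mt-Cytb*, but 1.57-fold for *mt-Nd6* and 1.498-fold for *mt-Nd5*. The part that depth had in these gaps was not tested. The last set was *mt-Nd2* among the treated Ribo-seq libraries, where treated HFSCs of mouse 1 held 3 footprints and the others 0, a gap that is the whole range (1).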

How the results depend on the processing

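Of 377 alternative values of shares and of counts of members called, 352 stayed near the main value and 25 did not. For a count, near meant within 1.5 times. For a share it meant within the pooled SD of single libraries within a group, on the log2 scale. That SD was 0.29 for RNA-seq, 0.89 for Ribo-seq and 1.07 for their ratio, and direction was not part of the rule. On leaving out 1 library, the difference of HFSCs from progenitors changed sign in each, at −0.035 to 0.28, −1.05 to 0.28 and −1.26 to 0.29. RNA-seq members called for N1-AcSpd averaged over cell types went from 0 to 4 with DESeq2, 2 without a count minimum (beside 2.61% of all genes), 1 with the replicate block and 7 with the replicate block and treated HFSC numbers exchanged. In HFSCs they went from 0 to 4 with DESeq2 and 7 with the exchange, and for HFSCs against progenitors under N1-AcSpd from 0 to 1 with the exchange. Ribo-seq members called for N1-AcSpd went from 2 to 0 with DESeq2 and with summed counts, in progenitors and averaged over cell types. Leaving out 1 library could move these counts up or down in progenitors and averaged over cell types. For HFSCs against progenitors without treatment it could move the Ribo-seq count up. Such a fit leaves 1 library in a group, so the direction alone is given here. For translational efficiency with N1-AcSpd, the count in progenitors went from 0 to 3 with the block and 3 with the exchange. In HFSCs it went from 0 to 1 with RLE factors, without a count minimum and with the exchange, beside 0.0119%, 0.00964% and 0.0119% of all genes. Leaving out 1 library could also move it up. Averaged, it went from 0 to 4 with DESeq2, 2 with the block and 3 with the exchange, and could also rise on leaving out 1 library. The replicate block moved no other count. Of 779 values of single genes for N1-AcSpd against untreated, which leave out footprints and translational efficiency of *mt-Nd2* and *mt-Nd4*, 705 kept direction and side of the threshold, 51 came to pass it, 13 no longer passed and 10 reversed, all on leaving out 1 library. Leaving out libraries in turn, the log2 change in progenitor RNA-seq ran from −0.20 to 0.39 for *mt-Co1*, −0.062 to 0.65 for *mt-Nd4*, −0.19 to 0.49 for *mt-Nd5* and −0.54 to 0.57 for *mt-Nd6*, each lowest without treated mouse 2, and *mt-Co1*, *mt-Nd5* and *mt-Nd6* were also below 0 without untreated mouse 1. In progenitors *mt-Nd5* ran from −0.62 to 0.080 in footprints and from −1.08 to 0.27 in translational efficiency, above 0 without treated mouse 2. In HFSC footprints *mt-Nd6* ran from −1.46 to 0.17, above 0 without untreated mouse 2. Outside these 779, the footprint difference without treatment of HFSCs from progenitors ran from −2.14 to 0.10 for *mt-Co1* and from −2.29 to 0.68 for *mt-Cytb*, above 0 without untreated progenitors of mouse 1. Except for libraries left out, the cause was not tested. With 34467 to 267921 footprints and 2 libraries per group, 41.5% of simulated 4-fold changes were recovered in the averaged Ribo-seq test. The simulation held no difference between mice and the same dispersion for all genes, so this rate is not that of the members.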

Other observations

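Over the 8 RNA-seq libraries, the nuclear genes whose log2 level followed the log2 share of the 7 genes most closely were *Cept1* (Pearson's r 0.986), *Mettl2* (0.973), *Cetn3* (0.963), *Gla* (0.954) and *Telo2* (0.944), out of 10153 genes averaging 100 counts or more. They are the extremes of a large search over points that share libraries, and are given as a description. Among genes of HFSC identity, *Krt15* fell in RNA-seq with N1-AcSpd averaged over cell types (−0.99 ± 0.08, SE, adjusted p by edgeR 0.00443). It was 1 of 11 called on that list beside 1.63% of all genes, with 3 of the 11 above 0 and 8 below. Among genes of lineage progression, *Lypd3* (−0.96) and *Krt6a* (−0.43) were lower in HFSCs than in progenitors averaged over treatment, 2 of 6 on that list beside 3.91% of all genes, and 0 of 6 passed within either treatment.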
